A study of Mus musculus with 15 samples.

Results

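Sense intronic transcripts were examined in whole blood RNA of 15 male C57Bl/6 mice, beside the protein-coding genes in whose introns they lie. The gene table held 55536 genes, of which 327 carried the biotype sense intronic. The 88 described here reached at least 10 counts in at least 7 of the 15 libraries, and 30 of the 327 had no count in any library. The members were chosen by their counts, so their presence in blood is a description. Just inside the threshold stood Gm48302, 4930509H03Rik and C230066G23Rik, whose 7th highest counts were 10, 11 and 11. Just outside stood Gm29670, Gm43138 and Hm629797, each with a 7th highest count of 9.

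The TBT group was 8 mice whose mothers drank tributyltin, an organotin compound, at 0.5 mg per kg per day (3.07 µM in the water) up to weaning. The vehicle group was 7 mice of mothers given the vehicle. All 15 were 10 months old and gave 1 library each, and the labels name no other treatment or genotype. Vehicle 3 is labelled with a liver tumor, and the labels give no tumor status for the other animals.

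A sense intronic gene is an annotated RNA that lies within an intron of a protein-coding gene and is read from the same strand. Such annotations include independent noncoding genes, such as the imprinted Peg13, and pieces of host introns that were cloned as cDNA. A library of total RNA after ribosomal RNA removal keeps unspliced RNA, so a read in such a gene may come from the transcript itself or from the unspliced or retained intron of the host. In bulk blood, fewer cells of a type and less RNA per cell cannot be told apart.

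Of the 88 members, 85 lay wholly inside a protein-coding gene on the same strand, within 73 different hosts. Gm26930, Gm42868 and Gm31814 had no such host. Each of 80 members lay within a single intron of a host transcript, for 33 of them the first intron. The containing introns had a median length of 14945 bases. The members spanned 517 to 77131 bases, with a median of 2264.5, and 47 had 1 exon. Exons of another annotated gene overlapped 9 members, whose counts may therefore be shared, since how the counting treated strand is not given in the sources used here.

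Chromosome 3 carried 25 members (28.41%), against 20.18% of all sense intronic genes and 5.19% of all genes in the table. Apart from Gm43445 in Lmo4, they lay between Gm43768, which starts at 94575777, and Gm42664, which ends at 119746446 (GRCm38/mm10). Within this stretch the mannosidase gene Man1a2 held 4 members, the Ras-family GTPase gene Rap1a 4, the membrane protein gene Lrig2 3, and the phosphatase gene Ptpn22, the actin-capping gene Capza1 and the kinase gene Hipk1 2 each. Members of 1 host lie in the same primary transcript of that host, so they are not independent of each other. The counts of members and pairs below still take each member singly. For members by direction, a count over hosts with 1 tested member is also given.

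The annotated ends of the members whose values are given in detail below show how unlike these transcripts are. Each line is the last 50 bases of the transcript, 5′ to 3′, from the GENCODE M21 transcripts on GRCm38, with the polyadenylation hexamer AATAAA in capitals.
Peg13: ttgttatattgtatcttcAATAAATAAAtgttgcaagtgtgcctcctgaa
Gm29170: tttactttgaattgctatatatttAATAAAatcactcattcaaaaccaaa
Gm43331: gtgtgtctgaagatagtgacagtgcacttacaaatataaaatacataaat
Gm43330: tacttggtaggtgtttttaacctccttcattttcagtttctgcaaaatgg
Gm43329: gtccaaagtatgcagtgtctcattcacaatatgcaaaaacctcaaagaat
Gm43328: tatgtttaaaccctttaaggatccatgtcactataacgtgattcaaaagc
Gm47664: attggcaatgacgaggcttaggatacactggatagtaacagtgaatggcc
Gm42664: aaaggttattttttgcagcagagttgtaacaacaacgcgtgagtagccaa

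Peg13 held 2 overlapping copies of the hexamer and Gm29170 held 1, whereas the 4 transcripts within Rap1a, Gm47664 within Elmo1 and Gm42664 within Ptbp2 held none. Searched on the transcript strand only, AATAAA was present in the last 50 bases of 20 of the 88 members (22.73%). The share was 21.28% in the other sense intronic genes with a transcript sequence, 21.8% in genes of the class TEC (models to be experimentally tested), 31.73% in lincRNA genes, 33.51% in antisense genes and 59.47% in protein-coding genes. In the first 50 bases of the members it was found in 2 (2.27%). A match or its absence is a description of these letters.

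The starts differed as well. The first 200 bases of 3 of the same transcripts follow, with each CG in capitals, because CG is frequent at the promoters of many broadly used genes.
Peg13: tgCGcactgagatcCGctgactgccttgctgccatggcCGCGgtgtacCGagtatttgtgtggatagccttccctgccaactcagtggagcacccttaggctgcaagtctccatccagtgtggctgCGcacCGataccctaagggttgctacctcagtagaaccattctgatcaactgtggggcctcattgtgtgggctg
Gm29170: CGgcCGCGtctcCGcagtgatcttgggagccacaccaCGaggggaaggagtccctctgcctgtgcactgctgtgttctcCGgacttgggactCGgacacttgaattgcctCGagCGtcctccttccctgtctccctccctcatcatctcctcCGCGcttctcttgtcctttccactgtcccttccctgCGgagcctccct
Gm43329: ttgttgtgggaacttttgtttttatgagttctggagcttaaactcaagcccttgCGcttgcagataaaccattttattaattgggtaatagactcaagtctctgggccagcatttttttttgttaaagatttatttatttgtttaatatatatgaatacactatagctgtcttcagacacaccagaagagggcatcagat

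Gm29170 had 12 CG in this window, Peg13 had 7 and Gm43329 had 1. Gm29170 starts at 143777642 on chromosome 1, close to the start of its host Uchl5 at 143777272 on the same strand, so its CG-rich start lies at the 5′ end of the host. The median was 1 over the members, 2 over TEC genes and 10 over protein-coding genes. The median GC content of the members' transcripts was 42.08%, close to the 42.22% of TEC genes and below the 49.09% of protein-coding genes.

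Mean levels of the members ran from 0.826 to 57.89 CPM, the usual count per library size, here on TMM-scaled library sizes, with a median of 1.998, and 73 members stayed under 5 CPM. Peg13 was the highest. Their hosts were genes well expressed in blood: the median host level was 47.95 CPM and 64 of 73 hosts (87.7%) reached 10 CPM. The 188 hosts of the other sense intronic genes had a median of 2.592 CPM and 30.3% at 10 CPM or more, and all protein-coding genes had 1.077 CPM and 27.1%. Members were chosen by their counts, which may include unspliced host RNA. The choice therefore favours expressed hosts, and this contrast is a description. Host genes of members were also long, with a median of 69.09 kb against 17.32 kb for all protein-coding genes, and 123.6 kb for hosts of the other sense intronic genes.

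Set per kilobase of exon, the density of counts in a member was a median of 25.23% of that in its host over 83 pairs, with a range of 1.565% to 1296%. In 20 pairs it was under 10%. In 10 pairs the member was at least as dense as the host's exons. The 2 highest were 1110028F11Rik in Rnf43, a ubiquitin ligase gene of the Wnt pathway, at 1296% and Peg13 in Trappc9, a trafficking complex subunit, at 301.4%. The value for 1110028F11Rik rests on a low host, with Rnf43 at a mean of 2.499 CPM. It also rests on 10.8 CPM in TBT 2 and 13.31 CPM in TBT 8, against 1.896 to 5.957 CPM in the other libraries. Gm17491 in the phosphate transporter gene Slc20a2 stood at 204.6%, Bach2it1 in the transcription repressor gene Bach2 at 136.2% and Gm42664 in the splicing factor gene Ptbp2 at 100.8%. By contrast, Gm43329 had 3.578% of the exon density of Rap1a.

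Libraries held 6.032 to 11.99 M counts, and haemoglobin genes, which mark the erythroid RNA of whole blood, took 28.75% to 50.76% of them. TBT 2 and TBT 8 stood apart by the lowest TMM factors, 0.4036 and 0.5278, followed by vehicle 6 with 0.736. In these libraries the members were thinly covered: TBT 2, TBT 8 and vehicle 6 had 28, 40 and 51 members at 10 counts or more, against a median of 83 over the TBT libraries and 66 over the vehicle libraries. Vehicle 7, with the fewest counts (6.032 M), had 47 such members, fewer than vehicle 6. It was kept, and its TMM factor was 0.9509. Summed counts of the members were 1195 to 4845 in TBT libraries and 1662 to 4148 in vehicle libraries. The main results on members and on host-relative levels are given with and without TBT 2, TBT 8 and vehicle 6. The lists of marker genes and nuclear RNAs are given with all 15 libraries only.

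The first comparison asked how the members differed between offspring of TBT-exposed and vehicle-exposed mothers. Most members were higher in TBT blood by a modest amount, and none passed the test. Of the 87 members tested (Gm48357 fell below the filter on low counts), 74 were higher and 13 lower in TBT (85.1% higher), against 59.4% of all 13364 tested genes. Their median log2 fold change was 0.30, against 0.05 over all genes. After Benjamini-Hochberg adjustment over all genes, edgeR's quasi-likelihood test called 0 genes (0.0%) and 0 members, with a lowest adjusted p of 0.2072. Without a filter on low counts edgeR called 2 genes (0.00481%), and without TBT 2, TBT 8 and vehicle 6 it called 7 (0.0515%), none of them a member. At an unadjusted edgeR p under 0.05, 10 of 87 members were higher, against 4.57% of all genes, and 0 were lower, against 1.76%. Among TEC genes 166 of 669 were higher and 0 lower at that p, so the members did not exceed this similar class.

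In 12 members all 8 TBT libraries exceeded the vehicle median, which held for 3.76% of all genes. In 0 members did the 2 groups separate fully, against 0.112% of all genes. TEC genes, many of which are also intronic models, were higher in 85.4% of 669, with a median of 0.30. The members' hosts were higher in 57 of 71 (80.3%) with a median of 0.12. Protein-coding genes that host no member were higher in 57.3%, with a median of 0.03, and both lincRNA and antisense genes in 66.7%. These classes are set side by side as descriptions, since the members had to reach a count threshold.

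The counts by direction were alike across positions. Among members in a first intron 27 of 33 were higher (median log2 fold change 0.29), and among those in later introns 41 of 46 (median 0.34). On chromosome 3, 21 of 25 were higher (median 0.26), and elsewhere 53 of 62 (median 0.32). Taking only hosts with 1 tested member, 54 of 64 were higher with a median of 0.30. A member could reach the count threshold through TBT libraries alone, so the stricter rule of at least 10 counts in all 15 libraries was also applied: it left 24 members, of which 22 were higher.

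**Figure D1:**
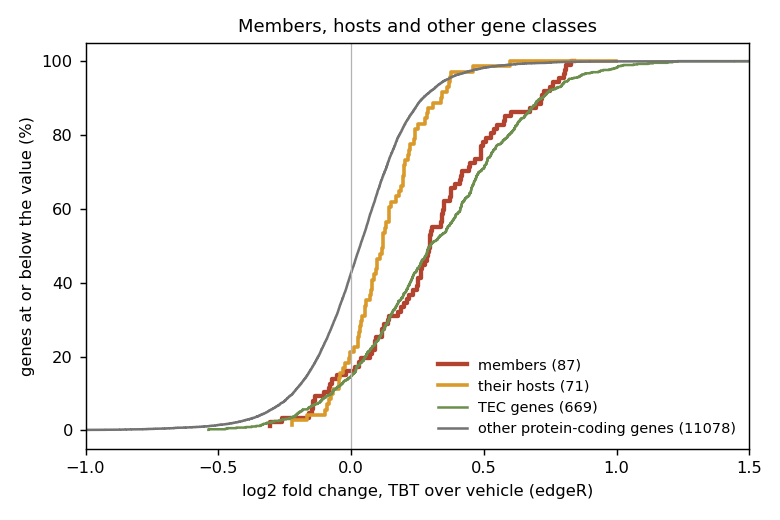
Cumulative share of genes (percent, vertical axis) at or below each log2 fold change of TBT over vehicle (horizontal axis) for 87 members, their 71 tested hosts, 669 TEC genes and 11078 protein-coding genes that host no member. The curves of members and TEC genes lie together, right of the hosts, which lie right of the other protein-coding genes.

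The members' shared level was not uniform within the groups. As the mean over members of log2 CPM, each set relative to its own 15-library mean, it was 0.13 ± 0.28 over the 8 TBT libraries and -0.15 ± 0.20 over the 7 vehicle libraries (± SD). The other 6 TBT libraries stood between 0.12 and 0.36, while TBT 2 was at -0.15 and TBT 8 at -0.41, the lowest of all libraries. In vehicle the range was -0.34 to 0.20, with vehicle 1 highest. The TBT minus vehicle difference was 0.28 with all libraries and 0.39 without TBT 2, TBT 8 and vehicle 6.

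The hosts showed another order. Their mean was highest in the same TBT 2 (0.29) and TBT 8 (0.19), whereas the other 6 TBT libraries had at most 0.04. The host mean was 0.05 ± 0.13 over the 8 TBT libraries and -0.05 ± 0.02 over the 7 vehicle libraries (± SD). Both TBT 2 and TBT 8 lay above all 13 other libraries for 26 of 71 hosts, among them Rap1a, Trappc9, Fcho2, Man1a2, Capza1 and Slc20a2, but for 4 of 87 members, namely Gm28512, 1110028F11Rik, Gm48905 and Peg13. Both lay below all others for 5 hosts (Dennd1c, Rbbp6, Bach2, Akap9 and Elmsan1) and 3 members (Gm48086, 5430414B19Rik and Gm48194). The share of all tested genes with either order was not determined, so these counts are not a trait of hosts or members. Counting noise also weighs more on the members, with a median level of 2.032 CPM against 48.4 CPM for the tested hosts. Without TBT 2, TBT 8 and vehicle 6, the log2 fold change turned sign for the hosts Rap1a (-0.11), Fcho2 (-0.12), Man1a2 (-0.04), Slc20a2 (-0.04), Trappc9 (-0.30), Usp4 (-0.12) and Bach2 (0.08). TBT 2 and TBT 8 were the highest libraries for each of these hosts, and the lowest for Bach2. Leaving them out moves the value in that direction, so the turn is no independent evidence. Without TBT 2, TBT 8 and vehicle 6, 75 of 88 members were higher with a median of 0.32, against 52.8% of all genes.

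**Figure D2:**
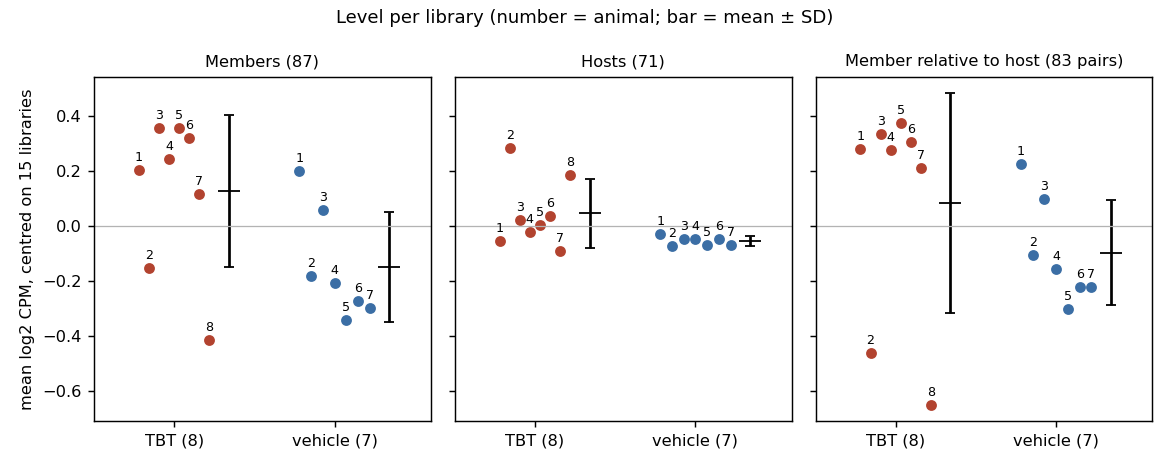
Mean log2 CPM centred on the 15 libraries (vertical axis), for the members, their hosts and the members relative to their hosts. Points are libraries numbered by animal, TBT left and vehicle right, with mean ± SD. TBT 2 and TBT 8 are the highest 2 libraries for the hosts and the lowest 2 for the member-to-host level.

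Most listed noncoding RNAs of the nucleus had values in the same direction. Of the 10 long noncoding RNAs known mainly from the nucleus, 8 were tested. All 8 had higher means in TBT (median log2 fold change 0.33, 0 called). Malat1, the most abundant, hardly differed, at 0.03 ± 0.30 (SE), and Tug1 stood at 0.07. Meg3 and Miat, too low to be tested, had lower means in TBT. These were 0.14 against 0.49 CPM in vehicle for Meg3 and 0.18 against 0.22 CPM for Miat. The summed level of all 10 was 1792 to 8665 CPM of all counts in TBT and 3599 to 7177 in vehicle. None of the 10 was at 0 throughout. Kcnq1ot1, an unspliced imprinted RNA, averaged 96.66 ± 15.44 CPM over the 8 TBT libraries, against 74.19 ± 9.73 CPM over the 7 vehicle libraries (± SD), at an edgeR adjusted p of 0.6762.

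Marker lists of blood cells and liver differed in direction among themselves, with 0 genes called in any. All 10 B cell markers were lower in TBT (median log2 fold change -0.26, summed level 291.8 to 2777 CPM of all counts in TBT and 1037 to 1840 in vehicle). All 10 monocyte markers were higher (median 0.19, summed 748.7 to 2290 in TBT and 930.4 to 2523 in vehicle). Of 13 tested erythroid markers 12 were higher on TMM-scaled levels (median 0.28, summed 313100 to 556700 in TBT and 323200 to 479100 in vehicle). The mean haemoglobin share of all counts was 36.12% in TBT and 36.15% in vehicle, but the TBT libraries were split. TBT 2 (50.76%) and TBT 8 (44.49%) had the highest shares of all libraries, and the other TBT libraries had 28.75% to 37.12%. Vehicle libraries had 28.88% to 44.05%. Of 7 tested hepatocyte markers 7 were lower (median -0.43, summed 2.294 to 683.3 in TBT and 4.48 to 727 in vehicle). No marker of these lists was at 0 in every library. The part of cell makeup or RNA quality in the members' levels was not tested.

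The second comparison asked whether a member moved with its host. It used the log2 CPM of the nested gene minus that of its host, fitted with limma over all 655 nested noncoding genes with a tested host. Of 83 member pairs, 63 (75.9%) were higher in TBT relative to the host, against 74.0% of all nested pairs, so the share was near that of nested genes at large. The median difference was 0.17 on the log2 scale for member pairs, 0.22 for all pairs, 0.25 for the 471 TEC pairs and 0.05 for the 100 other pairs. No pair passed (0.0% of 655, lowest limma adjusted p 0.3736). At an unadjusted p under 0.05, 6 member pairs were higher and 0 lower, against 11.0% and 0.458% of all pairs.

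By direction, member and host were both higher in 57 pairs, the member higher and the host lower in 13, the member lower and the host higher in 11, and both lower in 2. Subtracting the host did not narrow the spread between animals. The median within-group SD was 0.54 for members, 0.28 for hosts and 0.59 for the difference (log2), and the difference varied less than the member itself in 26 of 83 pairs.

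The outcome of this comparison turned on few libraries. Relative to the hosts, TBT 2 stood at -0.46 and TBT 8 at -0.65, the other TBT libraries at 0.21 to 0.38 and the vehicle libraries at -0.30 to 0.23. TBT 2 and TBT 8 were thus the lowest libraries on the very level tested. Leaving them out raises the TBT mean and narrows its spread, so the calls below are no independent evidence. Without TBT 2, TBT 8 and vehicle 6, limma called 43 of 695 pairs (6.19%), of which 6 were member pairs out of 84, namely D130062J10Rik, Gm15903, Gm20682, Gm42869, Gm43329 and Gm43330. The median of the member pairs was then 0.36, with 71 of 84 higher, against 83% of all pairs. With sample quality weights and all libraries kept, 60 of 655 pairs (9.16%) were called, 4 of them member pairs (Gm15903, Gm43329, Gm43330 and Gm47664). The weights of this fit are not given here. In limma-voom the weights were 0.261 for TBT 2 and 0.237 for TBT 8, against 0.719 to 2.35 for the other libraries. Calls with quality weights, here and in limma-voom below, therefore cannot be taken as separate evidence from leaving these libraries out.

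**Figure D3:**
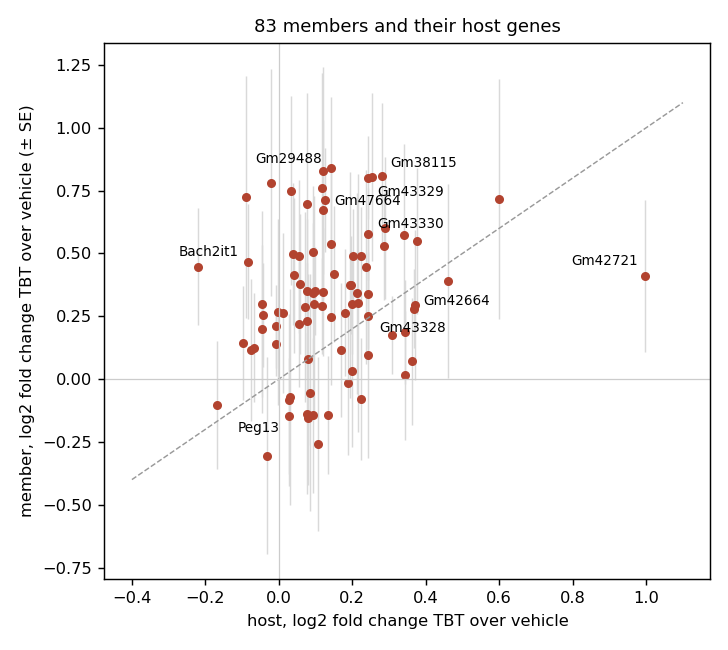
Log2 fold change of TBT over vehicle of 83 members (vertical axis, ± SE) against that of their hosts (horizontal axis), from edgeR on all libraries. The dashed line marks equal values, and 57 points lie where both are higher in TBT.

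Rap1a encodes a small GTPase that switches on integrins in platelets and leukocytes. It spans 105727267 to 105801336 on the minus strand of chromosome 3, and its 4 members are single-exon transcripts. Gm43331, Gm43330 and Gm43329 lie in that order in its first intron of 50910 bases, and Gm43328 in the sixth. As the printed ends show, none of the 4 has an AATAAA near its annotated end.

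Gm43329, at 105766966 to 105770197, had the smallest p of all members. Its lowest, median and highest levels were 6.424, 8.424 and 11.47 CPM in the 8 TBT libraries and 3.602, 4.555 and 7.217 CPM in the 7 vehicle libraries. Each TBT library exceeded the vehicle median, and 7 of 8 lay above every vehicle library. The groups overlapped only where TBT 2, the lowest TBT library, lay below vehicle 3. It averaged 8.55 ± 1.62 CPM in TBT and 4.88 ± 1.24 CPM in vehicle, a log2 fold change of 0.80 ± 0.16 (SE), at an edgeR adjusted p of 0.2072. DESeq2 called it at an adjusted p of 0.005211, the single member among its 19 calls (0.142% of all genes), and limma-voom with quality weights at 0.04369, among 22 calls (0.165%). Over leaving out each animal, the log2 fold change stayed between 0.71 and 0.91.

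The other transcripts in Rap1a differed less. Gm43330 had 4.241, 6.747 and 7.842 CPM as the lowest, median and highest level in TBT and 3.016, 4.5 and 5.74 CPM in vehicle. Of 8 TBT libraries, 6 lay above every vehicle library, and the log2 fold change was 0.58 ± 0.18 (edgeR adjusted p = 0.6831). Gm43331 had 4.41 to 8.737 CPM in TBT and 2.484 to 8.585 CPM in vehicle, a log2 fold change of 0.34. Gm43328 in the sixth intron had 4.088 to 10.95 CPM in TBT and 5.077 to 6.731 CPM in vehicle, a log2 fold change of 0.25. The groups overlapped for all 4 transcripts.

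Rap1a itself had 105.2, 130.6 and 296.4 CPM as the lowest, median and highest level in TBT and 126.0, 142.2 and 150.2 CPM in vehicle. The pair of high values were 296.4 CPM in TBT 2 and 259.0 CPM in TBT 8, and the TBT median lay below the vehicle median. Its log2 fold change of 0.24 turned to -0.11 without TBT 2, TBT 8 and vehicle 6. Relative to Rap1a, Gm43329 was higher by 0.65 ± 0.26 (SE) on the log2 scale with all libraries (limma adjusted p = 0.3736) and by 0.90 without those 3 (limma adjusted p = 0.01365).

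**Figure D4:**
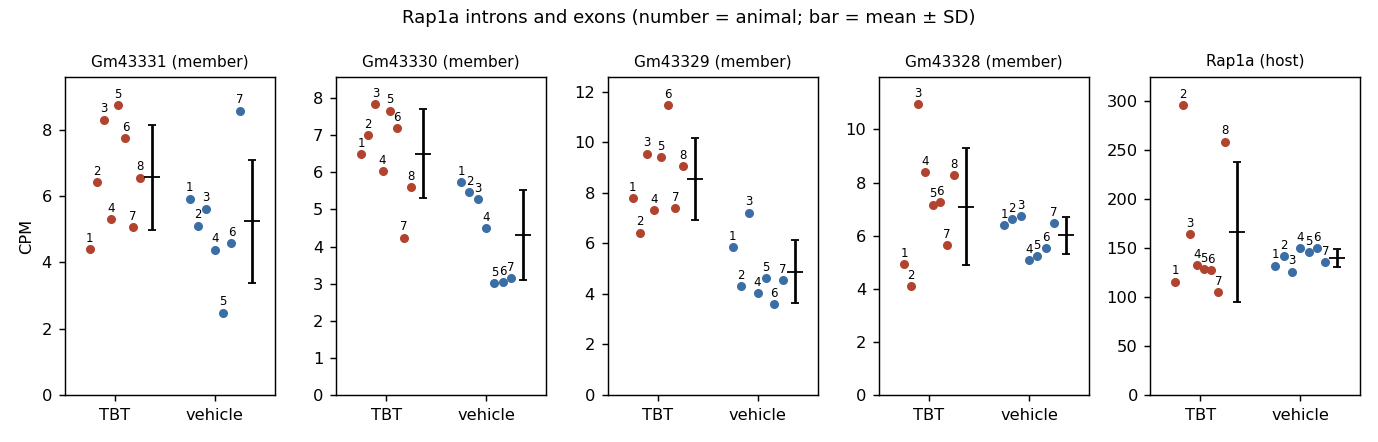
CPM (vertical axes, from 0) of the 4 members in Rap1a, in the order in which the gene is read, and of Rap1a, in TBT (left) and vehicle (right) libraries numbered by animal, with mean ± SD. Gm43329 is above 6 CPM in all TBT libraries and below 6 CPM in all vehicle libraries except vehicle 3, while Rap1a is highest in TBT 2 and TBT 8.

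Gm47664 lies in intron 16 of Elmo1, which encodes a partner of Dock proteins in Rac activation during cell migration and engulfment of dead cells, at 20499888 to 20501227 on chromosome 13. Its lowest, median and highest levels were 4.243, 6.398 and 6.759 CPM in TBT and 2.217, 2.984 and 6.132 CPM in vehicle. Each TBT library exceeded the vehicle median, and 5 of 8 lay above the highest vehicle library. The means were 5.97 ± 0.91 CPM over the 8 TBT libraries, against 3.69 ± 1.47 CPM over the 7 vehicle libraries (± SD). The log2 fold change was 0.71 ± 0.21 at an edgeR adjusted p of 0.6673, and limma-voom with quality weights put it at 0.04369. Elmo1 had 60.74 to 92.24 CPM in TBT and 67.48 to 87.61 CPM in vehicle, a log2 fold change of 0.13, and Gm47664 relative to it was higher by 0.62 ± 0.21 (limma adjusted p = 0.3736).

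Ptbp2, the neuronal homologue of the polypyrimidine tract splicing repressor, is the host of Gm42664. Its lowest, median and highest levels were 35.33, 40.25 and 44.94 CPM in TBT and 29.28, 30.32 and 34.35 CPM in vehicle, so the groups did not overlap. Its log2 fold change was 0.37 ± 0.07 at an edgeR adjusted p of 0.2072, and DESeq2 and limma-voom with quality weights called it at adjusted p of 7.6e-05 and 0.02699. Gm42664 in its intron 7 had 6.132, 14.74 and 17.31 CPM in TBT and 8.59, 11.54 and 14.09 CPM in vehicle. TBT 2 was the lowest library of all for Gm42664, and the other 7 TBT libraries lay above the vehicle median. The log2 fold change of Gm42664 was 0.28 ± 0.16 (edgeR adjusted p = 0.8429), and 0.36 without TBT 2. Relative to Ptbp2 it was -0.14 ± 0.17 (limma adjusted p = 0.7552), so no difference between member and host was shown.

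Peg13 lies in intron 16 of Trappc9, at 72805600 to 72810324 on the minus strand of chromosome 15, and is known as a paternally expressed noncoding RNA. It had 37.66, 42.39 and 104.2 CPM as the lowest, median and highest level in TBT and 42.88, 62.01 and 73.57 CPM in vehicle. TBT 2 (104.2 CPM) and TBT 8 (90.65 CPM) were above every vehicle library, while the other 6 TBT libraries had 37.66 to 47.84 CPM. The log2 fold change was -0.15 ± 0.23 with all libraries (edgeR adjusted p = 0.9765) and -0.51 without TBT 2, TBT 8 and vehicle 6 (edgeR adjusted p = 0.06182). Leaving out its highest libraries lowers the TBT mean and narrows its spread, so the second value is no independent evidence.

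Trappc9 had the same order of libraries at the top. TBT 2 was at 59.28 and TBT 8 at 53.62 CPM, against 19.62 to 36.38 CPM in the other TBT libraries and 24.63 to 39.63 CPM in vehicle. The log2 CPM of Peg13 minus that of Trappc9 ran from 0.39 to 0.98 in TBT and from 0.67 to 1.19 in vehicle, and the limma difference was -0.17 ± 0.12 (adjusted p = 0.6015).

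**Figure D5:**
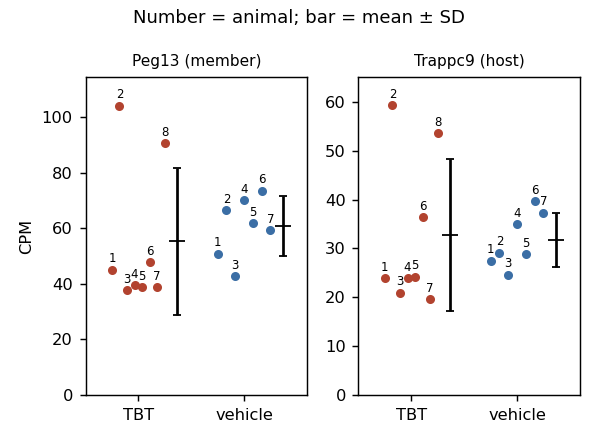
CPM (vertical axes, from 0) of Peg13 and of its host Trappc9 in TBT (left) and vehicle (right) libraries numbered by animal, with mean ± SD. TBT 2 and TBT 8 are the highest libraries in both panels, and the other 6 TBT libraries of Peg13 lie between 37.66 and 47.84 CPM.

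Among hosts of immune function, Bach2 encodes a repressor that keeps B and T cells from terminal differentiation. Bach2it1, in its first intron, had 3.472, 7.374 and 11.33 CPM as the lowest, median and highest level in TBT and 3.154, 5.482 and 6.493 CPM in vehicle. Of the 8 TBT libraries, 5 lay above every vehicle library and the other 3 below the vehicle median. Its log2 fold change was 0.47 ± 0.23 while that of Bach2 was -0.08, and relative to Bach2 it was higher by 0.50 ± 0.19 (limma adjusted p = 0.3736), with all 8 TBT libraries above the vehicle median of that measure. Bach2 was 60.45 CPM in TBT 2 and 54.01 CPM in TBT 8, its lowest libraries, against 75.32 CPM or more in the others.

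Ptpn22 encodes a phosphatase that dampens antigen receptor signalling, and its first intron holds 2 neighbouring members with different values. Gm43065 averaged 7.52 ± 1.25 CPM over the 8 TBT libraries, against 5.31 ± 1.87 CPM over the 7 vehicle libraries (± SD), a log2 fold change of 0.49 ± 0.20 (edgeR adjusted p = 0.7312). Gm15472, which ends just before it, averaged 2.95 ± 0.63 CPM in TBT and 3.14 ± 1.21 CPM in vehicle, a log2 fold change of -0.08. Ptpn22 itself stood at 0.22.

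Gm29488, in the cytoskeleton regulator gene Srgap2, had 1.383 to 2.951 CPM in TBT and 0.5256 to 1.694 CPM in vehicle, the largest log2 fold change of any member in this fit (0.84 ± 0.28). Its 8 TBT libraries all exceeded the vehicle median. D130062J10Rik, in the endocytosis gene Fcho2, averaged 5.74 ± 1.27 CPM in TBT and 4.12 ± 1.20 CPM in vehicle (0.49 ± 0.19 on the log2 scale). Gm42658 and Gm42659 in Capza1 had log2 fold changes of 0.21 and 0.14, with Capza1 at -0.01.

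Gm38115, in the gene of the transmembrane protein Tmem131, had 1.773 to 3.479 CPM in TBT and 0.5323 to 2.538 CPM in vehicle, a log2 fold change of 0.81 ± 0.29, with Tmem131 at 0.28. Gm29170, in the first intron of the proteasome deubiquitinase gene Uchl5 and the member with an AATAAA at its end and 12 CG at its start, had 2.451 to 5.358 CPM in TBT and 1.269 to 3.154 CPM in vehicle. Its log2 fold change was 0.53 ± 0.21, with Uchl5 at 0.29. Gm29170 also overlaps an exon of Gm25663 on the same strand. The edgeR adjusted p of these members with larger fold changes ran from 0.7079 to 0.7312.

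Gm15903, in the first intron of the mitochondrial protein gene Nipsnap2, was among the member pairs called without the 3 libraries. Its TBT libraries were close together, at 2.884 to 3.717 CPM, against 1.161 to 4.329 CPM in vehicle. Nipsnap2 had 12.27 to 41.17 CPM in TBT, with TBT 2 (41.17) and TBT 8 (34.91) highest, and 15.96 to 31.04 CPM in vehicle. The host-relative difference was 0.82 ± 0.35 with all libraries (limma adjusted p = 0.3736) and 0.97 without TBT 2, TBT 8 and vehicle 6 (limma adjusted p = 0.04548).

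Several members in 1 host need not share a direction. In Man1a2, which encodes a Golgi enzyme that trims N-glycans, Gm43466, Gm42869 and Gm43462 had log2 fold changes of 0.35, 0.70 and 0.23, and Gm43463 had -0.14, with Man1a2 at 0.08. In Lrig2, Gm43696 and A530041M06Rik stood at 0.34 and 0.51 and 4930509H03Rik at -0.14, with Lrig2 at 0.09. All of these were within 2 SE of 0.

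The 8 members with the smallest p among those lower in TBT had log2 fold changes of -0.31 to -0.10. Gm42829 in the Arp2/3 subunit gene Arpc3 was at -0.31 ± 0.39 and had 0 counts in TBT 8. Gm43024 in the mitochondrial tryptophanyl-tRNA synthetase gene Wars2 stood at -0.26 ± 0.35. The others were Gm37963 in Usp4, Peg13, 4930509H03Rik, Gm47920 in Zmiz1, Gm43463 and Gm47447 in Elmsan1. Of these, Gm43024, Gm43463, Gm47447 and Gm47920 turned positive when some single animal was left out. Gm42721 in the cilium gene Pifo had a host-relative difference of -0.58 ± 0.33. There the member was at 0.41 and Pifo at 1.00, with Pifo at only 1.78 ± 0.81 CPM over the 8 TBT libraries, against 0.84 ± 0.47 CPM over the 7 vehicle libraries (± SD).

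Among the most abundant members, Gm48027 in the chromatin gene Arid4b averaged 7.65 ± 1.67 CPM in TBT and 6.01 ± 1.52 CPM in vehicle, a log2 fold change of 0.35 ± 0.18. Gm17491 in Slc20a2 averaged 8.14 ± 1.76 CPM in TBT and 7.34 ± 1.34 CPM in vehicle (0.17 ± 0.16). The low member 4930596I21Rik, in the Rab GTPase activator gene Dennd1b, averaged 1.51 ± 0.53 CPM in TBT and 1.6 ± 0.61 CPM in vehicle (-0.02 ± 0.28).

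Ppnr, in the Wnt transcription factor gene Tcf7l2, was the member with the largest share of its counts in 1 library, 21.12% in TBT 3. It had 0.9644 to 3.805 CPM in TBT and 0.1161 to 2.498 CPM in vehicle, and a log2 fold change of 0.72 ± 0.48. Tcf7l2 stood at 0.60, with its highest vehicle value, 22 CPM, in vehicle 3. Leaving out vehicle 3 moved Ppnr to 1.17, and leaving out TBT 3 moved it to 0.43.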

How the data were processed

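Blood RNA was purified on RNeasy columns with a DNase step, and the TruSeq Stranded Total RNA kit gave the libraries, per the labels' protocols. The submitters' processing notes name Trim Galore for trimming, HISAT2 for alignment to mm10 and featureCounts for counting. Their versions, the annotation and the handling of strand were not stated there. The authors deposited unnormalized whole-number counts per gene, which were used unchanged. All 55536 gene IDs and biotypes matched GENCODE M21 on GRCm38, which gave coordinates, transcripts and hosts (the shortest protein-coding gene containing the member on the same strand; for Gm48194, whose shortest host Gm49354 was not tested, the pair used Tut7).

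Genes passing filterByExpr (13364) went into edgeR 4.0.16 (R 4.3.3) with TMM, robust quasi-likelihood fit, no covariate, Benjamini-Hochberg adjustment over these genes at a threshold of 0.05. Host-relative levels (log2 CPM, prior count 2) were fitted with limma 3.58.1 over all 655 nested noncoding genes inside a tested host. DESeq2 1.42.0, limma-voom, other scalings, filters, host definitions, a replicate block and leaving out libraries were alternatives. The fits were tested on simulated data. No label says that library numbers pair animals. Members, lists and tests were chosen with earlier results of these data known. Members named were the 10 with the highest mean CPM, in each direction the 8 of smallest p, the 5 pairs with the smallest host-relative p in each direction, Gm43329, the one most dominated by a single library, and those of hosts with 3 or more; the few other genes named with values were chosen after their values were seen.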

Additional observations from a re-analysis of the deposited data

Results flagged for a closer look

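Values of single libraries that stood apart from the rest of their group were looked for on the log2 scale, for the named members and hosts and for the 3 library means, in 122 groups of 7 or 8 libraries by Dixon's criterion, and 10 were found. Chance alone gives such a value in about 1 of 20 groups.

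Among members, Gm42664 in TBT 2 was at 6.132 CPM, against 13.5 CPM in the next TBT library. Gm42829 had 0 CPM in TBT 8, with the next at 0.584 CPM, and Gm47447 in TBT 8 was at 0.9644 CPM, with the next at 2.214 CPM. In vehicle, Gm15472 was at 0.9699 CPM in vehicle 6, with the next at 2.423 CPM, and Bach2it1 at 3.154 CPM in vehicle 7, with the next at 5.126 CPM. All 5 were the lowest library of their group.

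Among hosts, Arid4b was low in TBT 8 (51.89 CPM, next 71.05) and Elmo1 in TBT 2 (60.74 CPM, next 78.89). Bach2 was low in vehicle 5 (87.29 CPM, next 98.31). Vehicle 3, labelled with a liver tumor, was high for Tcf7l2 (22 CPM, next 10.1) and Zmiz1 (129.3 CPM, next 92.97). The 3 library means had no such value.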

How the results depend on the processing

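Of the 87 members tested (88 without a filter), 73 to 78 were higher in TBT under RLE and upper-quartile scaling, without haemoglobin genes, with DESeq2, limma-voom, the replicate block or no filter, and the members' median log2 fold change kept within 0.28 to 0.39. With at least 20 counts in 7 columns 46 of 54 were higher, and with at least 10 counts in all 15 columns 22 of 24. Leaving out each animal gave 69 to 76 higher, a median of 0.26 to 0.36, a host-relative median of 0.13 to 0.27 and 0 calls. The calls depended on the method: edgeR called 2 genes of 41564 without a filter (0.00481%, no member) and 7 without TBT 2, TBT 8 and vehicle 6 (0.0515%, no member), DESeq2 19 (1 member, Gm43329) and limma-voom 22 (2 members, Gm43329 and Gm47664). Of host-relative pairs, 43 (6 members) were called without TBT 2, TBT 8 and vehicle 6, and 60 (4 members) with quality weights. The limma-voom weights were lowest for TBT 2 and TBT 8. Without a filter, 45.3% of all genes were higher. The causes were not tested.

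Animals of the same replicate number showed no general likeness: the correlation of deviations was over 0.1 in 2 of 7 pairs. It ran from -0.235 in pair 4 to 0.506 in pair 3. With so few pairs this check cannot settle whether the numbers pair animals. With the replicate block edgeR called 0 genes, the member median was 0.34 and the host-relative median 0.27.

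Small fold changes turned sign. With limma-voom these were 4930596I21Rik (0.15), Gm43024 (0.16), Gm15472 (0.064), Bach2 (0.010), Fcho2 (-0.035), Man1a2 (-0.057), Rap1a (-0.043), Slc20a2 (-0.033), Trappc9 (-0.28) and Usp4 (-0.084). With the replicate block they were 4930596I21Rik (0.044), Gm15472 (0.023), Gm47447 (0.038), Trappc9 (-0.20) and Usp4 (-0.018). Without TBT 2, TBT 8 and vehicle 6 they were 4930596I21Rik (0.012), Gm47447 (0.098), Bach2 (0.081), Fcho2 (-0.12), Man1a2 (-0.038), Rap1a (-0.11), Slc20a2 (-0.037), Trappc9 (-0.30) and Usp4 (-0.12). Upper-quartile scaling turned Trappc9 (-0.019). Leaving out 1 animal gave ranges that crossed 0 for 4930596I21Rik (-0.13 to 0.088), Gm43024 (-0.44 to 0.048), Gm43463 (-0.27 to 0.13), Gm15472 (-0.23 to 0.021), Gm47920 (-0.25 to 0.053), Gm47447 (-0.22 to 0.0095), Arpc3 (-0.17 to 0.034), Capza1 (-0.068 to 0.023), Trappc9 (-0.15 to 0.10), Usp4 (-0.049 to 0.11) and Wars2 (-0.024 to 0.22).

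At a median of 1.998 CPM most members rest on few counts. The biological coefficient of variation was 0.29. Nothing in the labels separates animals by litter or by cell count. The p-values set the group difference against the spread between these animals, which were taken as independent.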

Other observations

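Platelet markers were higher in 9 of 12 and neutrophil markers in 9 of 11 tested, with median log2 fold changes of 0.06 and 0.16. T cell markers split evenly, with 5 of 10 higher, NK cell markers were higher in 6 of 8, and the 4 tested eosinophil and basophil markers were all lower, with a median of -0.23. None of these markers was called by edgeR.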
